A study of Mus musculus with 36 samples.

Results

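The genes described here are the protein-coding genes of mouse chromosome 14, read as one block to ask whether a whole chromosome sat higher or lower in 1 of 10 transformed astrocyte lines and which of its genes did not follow. Members were the protein-coding genes placed on chromosome 14 of GRCm38 with at least 100 counts summed over all 36 libraries, without the genes of the ribosomal protein families and 7 genes left out by name. That gave 362 members of 887 protein-coding chromosome 14 genes in the table and of 46078 genes in all. Of the rest, 515 lay below the count minimum, 334 of them with no count, and 10 were left out by name. Tnfsf11 with 98 counts and Nalcn with 99 lay just under the minimum, and Peli2 with 105 and Zfhx2 with 106 just over it. The members spanned chr14:5970744-123975618 and held 1.80% of all counts.

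The libraries were made with BRB-seq, a pooled 3' RNA sequencing method in which every transcript carries a sample barcode and a unique molecular identifier. All cells carried the genotype Nf1-/- DNp53, that is, they lacked the neurofibromin gene Nf1 and carried a dominant-negative form of p53, and all were transformed astrocytes grown in DMEM/F12 with 10% fetal bovine serum and 1% penicillin/streptomycin. Each of 5 lots, which came from separate litters (6, 7, 8, 11 and 12), gave 1 female and 1 male line, with 3 libraries per line in lots 6 and 12 and 4 in lots 7, 8 and 11. No wild-type cells were among them, and the sample titles name no treatment. Because each sex was represented by 1 line in a lot, a difference between the sexes of a lot cannot be told apart from a difference between 2 lines, and since nothing states that the libraries of a line came from separate cultures, p-values measure only the spread between these libraries.

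A chromosome carried at fewer copies usually yields less RNA from most of its genes at once, while single genes can depart from that shared level through their own promoters and enhancers. A shared shift in RNA is therefore read from the median of many neighbouring genes, and the genes that leave it are read one by one. DNA copy number was not measured in these samples, so what follows is about RNA levels alone.

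Library totals ran from 4358098 to 7562901 counts. Of the 8 astrocyte markers of the list 3 averaged above 1 CPM (counts scaled to a common library size) over the lines. The 8 summed to 93.7 CPM in the Lot 6 female line and to 96.9 to 235 CPM in the other lines. Most of that sum came from Gja1, at 75.8 CPM against 82.6 to 220 CPM. Sox9 lay at 7.67 CPM against 9.63 to 18.4 CPM. Slc1a3 was highest in the Lot 6 female line, at 8.91 CPM against 0.0497 to 4.49 CPM. Gfap, the classical astrocyte filament gene, was at 0 in the Lot 6 female line and at most 0.478 CPM in any other. The 6 pericyte and smooth muscle markers summed to 14832 CPM in that line against 1362 to 11096 CPM in the others, nearly all of it from Acta2, the smooth muscle actin gene, at 14811 CPM against 1341 to 11035 CPM. Pdgfrb, a pericyte receptor gene, lay inside the range of the other lines (3.97 to 60.5 CPM), and Des was at 0. Their part in the results was not tested. The 6 oligodendrocyte markers summed to 0 in the Lot 6 female line and to at most 0.546 CPM in the others, and fewer cells of a type and less RNA per cell cannot be told apart in such bulk libraries.

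The level of a member in a line is given relative to the other 9 lines, as its log2 CPM in that line minus the median of its log2 CPM in the others. The 185 members with a mean of at least 10 CPM over the lines are called well measured, and the other 177 lay under that level. The members and their chromosome were chosen by the RNA levels of the Lot 6 female line, so the values of that line are a description and carry no test.

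In the Lot 6 female line the well-measured members had a median relative level of -0.72, that is 0.607 times the level in the other lines. The quartiles were -0.99 and -0.37, and 166 of 185 members (89.7%) lay below 0, against 53.1% of all 6353 well-measured genes. The 3 libraries gave medians of -0.68, -0.70 and -0.69 (mean -0.69 ± 0.012, SD, n = 3). Every library of the other 9 lines lay well above these values. Members took 1.24% of all counts in this line and 1.64% to 2.11% in the other 9. The line was the lowest of all 10 for 130 of the 185 members, or 70.3%, where it was the lowest for 23% of all well-measured genes. It was the highest for 6 members, or 3.24%, where it was the highest for 19.1% of all well-measured genes.

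The other lines stayed within a much narrower band. The medians were 0.10 in Lot 6 male, -0.10 in Lot 7 female, -0.22 in Lot 7 male, 0.14 in Lot 8 female, -0.16 in Lot 8 male, 0.15 in Lot 11 female, 0.06 in Lot 11 male, 0.15 in Lot 12 female and 0.02 in Lot 12 male. The share of members below 0, with that of all well-measured genes beside it, was 34.1% (46.7%) in Lot 6 male, 63.2% (52.2%) in Lot 7 female, 78.4% (49.9%) in Lot 7 male, 29.2% (51.5%) in Lot 8 female and 69.7% (47.5%) in Lot 8 male. In the later lots it was 25.9% (45.8%) in Lot 11 female, 40% (48.5%) in Lot 11 male, 24.3% (53.8%) in Lot 12 female and 45.4% (51.1%) in Lot 12 male. The share of members lay above that of all genes in both Lot 7 lines and in Lot 8 male, and below it in the other 6 lines. The Lot 8 libraries did not overlap between the sexes, with 0.11 to 0.13 in females and -0.16 to -0.12 in males. The 4 Lot 7 female libraries were spread from -0.25 to 0.08 and overlapped the Lot 7 male libraries at -0.27 to -0.11. Lot 6 male, from the same litter as the shifted line, had libraries from 0.08 to 0.10.

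**Figure D1:**
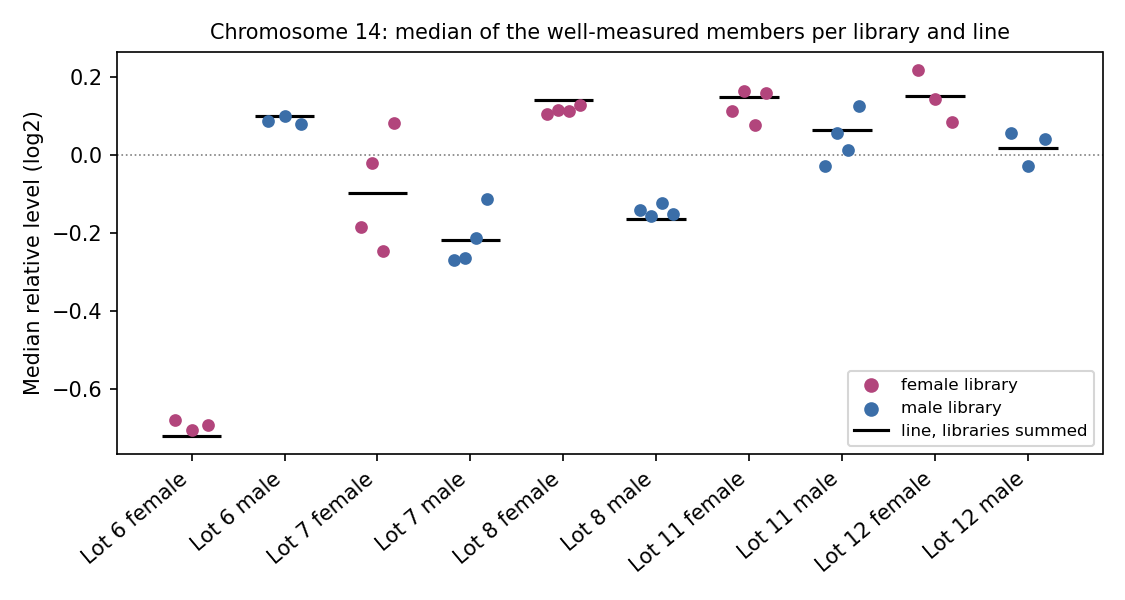
Median relative level (log2) of the 185 well-measured chromosome 14 members in each of the 36 libraries (points, females in purple and males in blue) and in each line with its libraries summed (black bars). The 3 Lot 6 female libraries lie between -0.70 and -0.68, and no other library lies below -0.27.

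Against the other chromosomes, chromosome 14 was the lowest of 20 in the Lot 6 female line. The next were chromosome 11 at -0.36 and chromosome 10 at -0.26, and the highest was chromosome 2 at 0.34. The spread of members around their median lay within that of the other chromosomes, with an interquartile range of 0.62 on chromosome 14 and of 0.44 to 0.65 on the others. Chromosome 14 was also the lowest in Lot 7 male, at -0.22 beside -0.14 for chromosome 15, and in Lot 8 male, at -0.16 beside -0.15 for chromosome 1. It was the highest in Lot 11 female and Lot 12 female, both at 0.15.

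**Figure D2:**
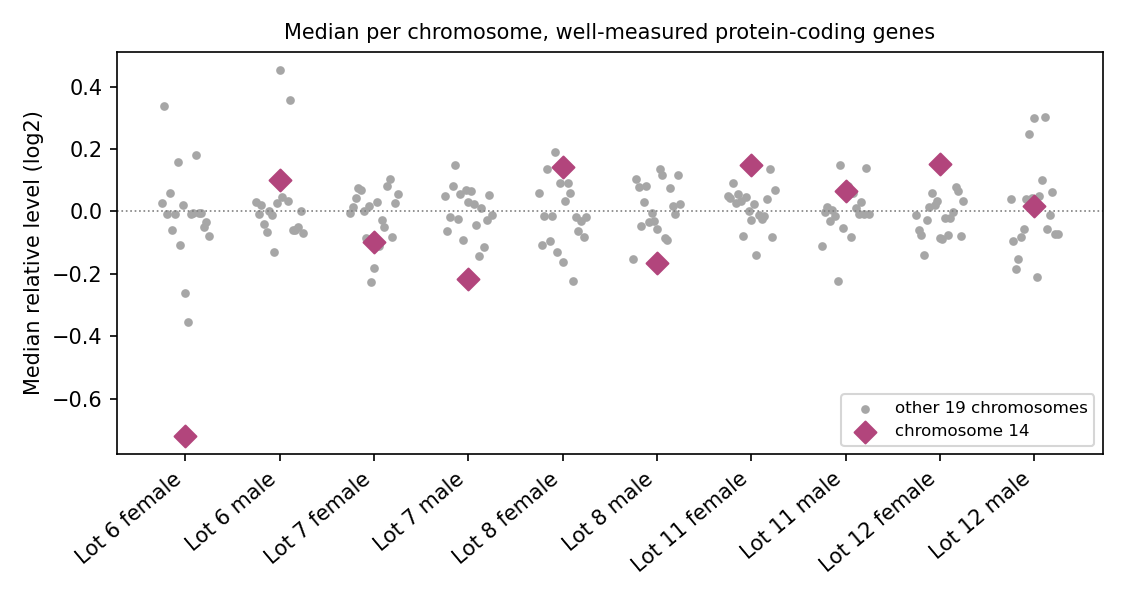
Median relative level (log2) of the well-measured protein-coding genes of each chromosome in each of the 10 lines, with chromosome 14 as a purple diamond and the other 19 chromosomes as grey points. In the Lot 6 female line chromosome 14 lies at -0.72 and the next chromosome at -0.36, while in the other lines chromosome 14 lies between -0.22 and 0.15.

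Read by position in bins of 10 Mb, the shift of the Lot 6 female line ran along most of the chromosome, with 1 long gap. The medians were -0.64 for the first bin with 6 well-measured members, -0.84 for the next with 8, -0.23 for the bin from 20 to 30 Mb with 22, and then -0.84, -0.56, -0.69, -0.72 and -0.83 up to 80 Mb. Beyond 80 Mb the bins held 1 to 8 members each and ran from -1.42 to -0.29. Nearest to 0 among these were the bins from 80 to 90 Mb (-0.29, 1 member) and from 90 to 100 Mb (-0.35, 4 members). Every bin was below 0. The lowest, from 100 to 110 Mb, rested on 5 members, among them Spry2, an inhibitor of growth factor signalling, at 4.78 CPM in the Lot 6 female line and 7.61 to 33.7 CPM in the others.

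The long gap was a run of 15 neighbouring members from Kcnk5 to Camk2g, at chr14:20140057-20794088, a stretch of 654 kb. It was found after the values were seen, as the longest series of consecutive members above -0.36, which is midway between 0 and the median of the chromosome. The next longest such series, from Fermt2 to Cdkn3, held 4 members. Without the run the bin from 20 to 30 Mb had a median of -0.72 over 13 members, close to the rest of the chromosome.

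**Figure D3:**
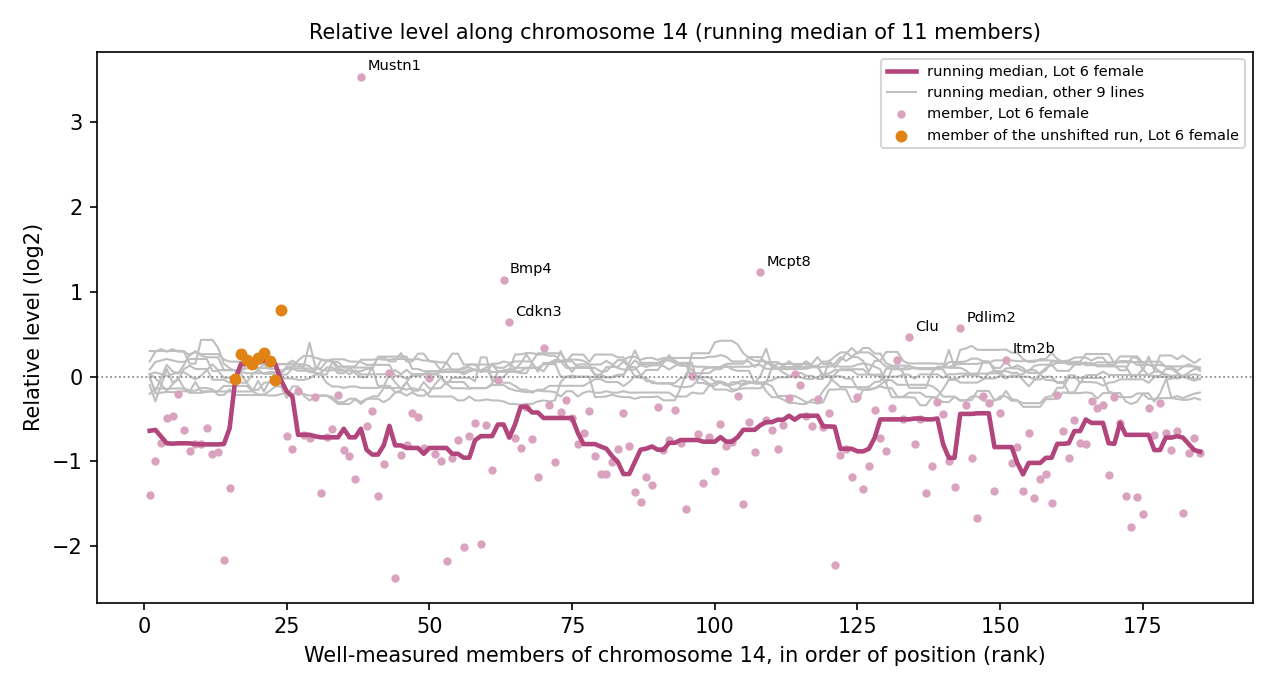
Relative level (log2) of the 185 well-measured members in the Lot 6 female line (points, with the run from Kcnk5 to Camk2g in orange) by their rank along chromosome 14, with the running median over 11 members for that line (purple) and for the other 9 lines (grey). The purple curve stays below the grey ones except at the orange run, where it reaches their level, and Mustn1 stands highest at 3.54.

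The run opened and closed within a few genes. Before it lay Gng2, a gamma subunit of heterotrimeric G proteins, at -2.16 and Saysd1 at -1.31. Saysd1 counted 5.22, 4.04 and 10.6 CPM in the 3 Lot 6 female libraries and 11.0 to 30.6 CPM in the other lines, so every line was higher, although single Lot 8 and Lot 11 male libraries at 9.31 and 9.06 CPM lay under the highest of the 3. The next member, Kcnk5, a background potassium channel gene whose annotated span begins beside that of Saysd1, counted 2.80, 6.78 and 5.86 CPM in the same libraries against 0 to 2.93 CPM in the other lines, a relative level of 1.84 on very few counts.

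At the far end Camk2g, the gamma chain of calcium/calmodulin-dependent kinase II, counted 15.2, 22.2 and 20.4 CPM in the Lot 6 female libraries against a median of 11.1 and a highest line of 15.7 CPM, a relative level of 0.78. The following member, Vcl, which encodes the adhesion protein vinculin, counted 7.01, 7.64 and 7.58 CPM against 5.88 to 18.2 CPM, a relative level of -0.70. After it came Ap3m1, a subunit of a vesicle coat adaptor, at -0.85, Adk, the adenosine kinase gene, at -0.17 and Kat6b, a histone acetyltransferase gene, at -1.48.

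Within the run the median relative level was 0.28, and 13 of 15 members lay above 0. The exceptions were Ecd at -0.03 and Chchd1, a mitochondrial ribosome protein gene, at -0.04. The best measured members sat close to the other lines. Chchd1 counted 394, 342 and 412 CPM in the Lot 6 female libraries against 315 to 490 CPM in the other lines. Mrps16, another mitochondrial ribosome protein gene, counted 336, 322 and 357 CPM against 253 to 370 CPM. Dnajc9, a histone co-chaperone gene, counted 137, 139 and 178 CPM against 117 to 158 CPM. These ranges overlapped for all 3 genes.

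The higher values in the run came mostly from members with few counts. Usp54 at 1.05, Ndst2 at 1.00, Fam149b at 0.95, Nudt13 at 0.81 and Zswim8 at 0.47 all lay under 10 CPM on average, and the 9 well-measured members of the run had a median of 0.20. Among those, Anxa7, a calcium-dependent membrane-binding protein gene, stood at 0.15, Ppp3cb, a catalytic subunit of calcineurin, at 0.22, Sec24c, a cargo adaptor of COPII vesicles, at 0.28, and Fut11 at 0.18. Ppp3cb, Usp54, Sec24c, Fut11 and Chchd1 overlap antisense genes on the opposite strand, and whether reads were counted by strand was not given in the sources used here, so reads of these partners cannot be told apart from theirs. The antisense gene 2810402E24Rik, with 1627 counts, lay at 17.8 CPM in the Lot 6 female line against a median of 6.62 CPM.

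In the other 9 lines the medians of the run went from -0.32 in Lot 7 male to 0.15 in Lot 6 male. The 9 well-measured members had a median SD of 0.165 (log2 CPM) over the other 9 lines, where the remaining well-measured members that did not escape had 0.246. Over all 15 members of the run the median SD was 0.289 and the highest 1.42, for Kcnk5. Plau, which was left out by name and lies between Camk2g and Vcl, had a relative level of -0.27 at 2.30 CPM. That is above the limit of -0.36, so as a member it would have closed the run in place of Camk2g.

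**Figure D4:**
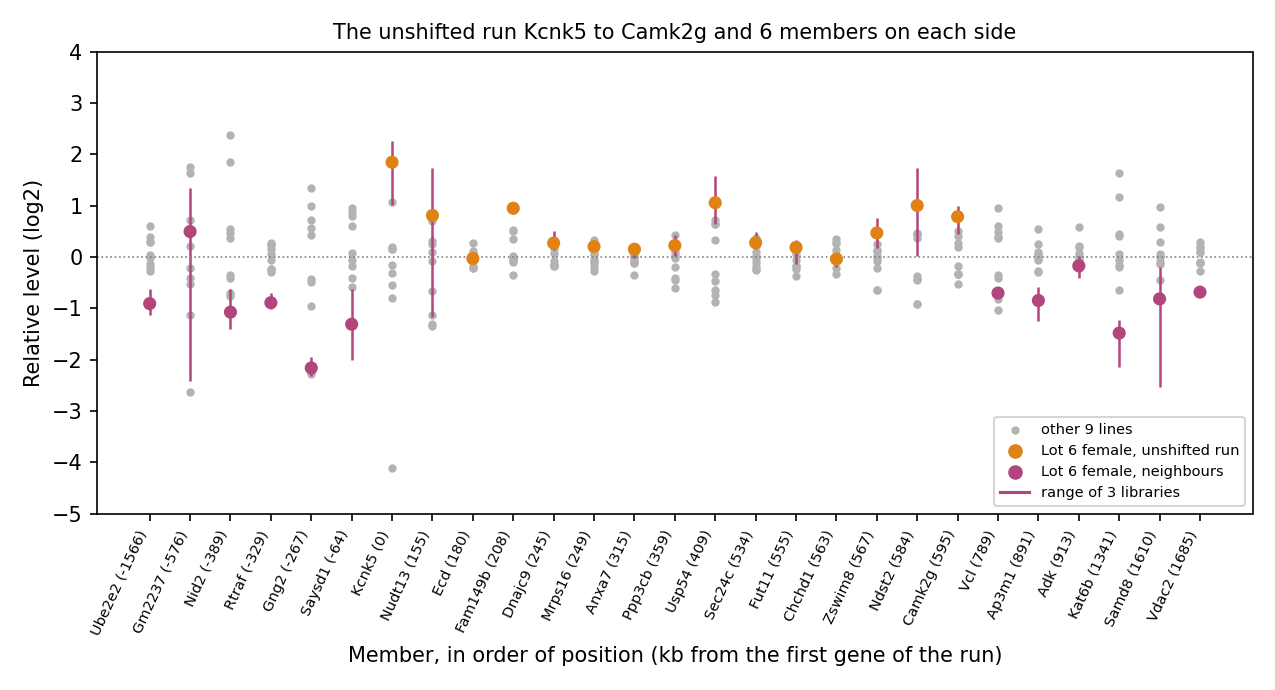
Relative level (log2) of the 15 members of the run from Kcnk5 to Camk2g (orange) and of 6 members on each side (purple) in the Lot 6 female line, with the range of its 3 libraries as vertical lines and the other 9 lines as grey points. Numbers after the names give the distance of each gene's start from that of Kcnk5 in kb. The run lies between -0.04 and 1.84, and Saysd1 and Vcl beside it lie at -1.31 and -0.70.

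The promoters of the first member of the run and of the first member after it are printed. Those of 2 genes elsewhere that left the shift, Mustn1 and Bmp4, described further below, are printed as well. All 4 belong to genes at which the level changed. Of the 362 members 271 matched an entry of the RefSeq promoter table (GRCm38.p6), and the 250 bases before the start are given. Capitals mark matches on either strand to 4 motifs: the TATA box TATAAA, the GC box GGGCGG, the CCAAT box CCAAT and the AP-1 site TGANTCA, with overlapping matches joined. The regions are Kcnk5 at chr14:20181783-20182032, minus strand; Vcl at chr14:20929148-20929397, plus strand; Mustn1 at chr14:30879007-30879256, plus strand; and Bmp4 at chr14:46390670-46390919, minus strand.
Kcnk5: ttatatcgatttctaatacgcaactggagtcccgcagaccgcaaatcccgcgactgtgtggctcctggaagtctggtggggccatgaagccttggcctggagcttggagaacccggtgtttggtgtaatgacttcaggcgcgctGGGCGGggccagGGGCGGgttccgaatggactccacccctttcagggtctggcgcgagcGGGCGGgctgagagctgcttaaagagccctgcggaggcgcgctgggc
Vcl: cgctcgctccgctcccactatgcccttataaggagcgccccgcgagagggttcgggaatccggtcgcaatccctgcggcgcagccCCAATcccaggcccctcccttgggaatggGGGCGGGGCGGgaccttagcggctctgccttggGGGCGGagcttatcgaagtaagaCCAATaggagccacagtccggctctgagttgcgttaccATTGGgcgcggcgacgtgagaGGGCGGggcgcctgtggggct
Mustn1: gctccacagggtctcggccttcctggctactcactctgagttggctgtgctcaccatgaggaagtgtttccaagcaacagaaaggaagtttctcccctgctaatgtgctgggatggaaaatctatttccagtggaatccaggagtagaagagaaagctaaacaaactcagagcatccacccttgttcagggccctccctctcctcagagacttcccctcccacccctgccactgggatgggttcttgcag
Bmp4: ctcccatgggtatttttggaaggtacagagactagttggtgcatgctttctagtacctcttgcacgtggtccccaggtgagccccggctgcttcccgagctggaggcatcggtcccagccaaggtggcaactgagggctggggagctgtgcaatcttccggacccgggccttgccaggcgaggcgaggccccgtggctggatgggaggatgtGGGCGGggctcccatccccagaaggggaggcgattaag

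Kcnk5, inside the run, and Vcl, outside it, both had promoters rich in CpG, with 19 and 24 CpG dinucleotides and 3 and 4 GC boxes. Mustn1 had 1 CpG and none of the 4 motifs, and Bmp4 had 11 CpG and 1 GC box. A GC box was found in 44.7% of 16338 promoters of protein-coding genes, in 62.0% of the 271 members and in 10 of the 14 matched members of the run (71.4%). The CCAAT box was in 36%, 36.5% and 28.6% of the same sets, the TATA box in 11.7%, 6.64% and 7.14%, and the AP-1 site in 6.10% of all, 3.69% of the members and none of the run. The 16338 promoters were taken without the count minimum that the members had to pass. The shares therefore come from unlike sets and cannot be read as a trait of the chromosome or of the run. A match is a description of the letters and not a bound site.

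Apart from the run, other members left the shared shift as well. An escape gene is a well-measured member whose relative level in the Lot 6 female line, and in each of its 3 libraries, lay at or above 0. There were 12, of which 5 lay in the run (Camk2g, Sec24c, Dnajc9, Ppp3cb and Mrps16) and 7 elsewhere (Mustn1, Mcpt8, Bmp4, Cdkn3, Pdlim2, Clu and Itm2b). Itm2b at 0.20 was just inside this limit, and Dlgap5 at 0.34 was just outside it because 1 library lay marginally below 0.

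Mustn1, a small nuclear protein gene of muscle and skeletal tissue, was the farthest. It counted 48.4, 62.9 and 51.3 CPM in the Lot 6 female libraries, against a median of 4.56 CPM and a range of 0.447 to 36.2 CPM in the other lines. Only 1 of the other libraries, a Lot 12 male one at 53.8 CPM, reached those levels. The relative level was 3.54.

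Bmp4, a secreted ligand of the BMP family, counted 42.9, 67.8 and 56.8 CPM in the Lot 6 female libraries against 11.2 to 62.8 CPM in the other lines, so Lot 12 male was higher still. Mcpt8, a mast cell and basophil protease gene, counted 35.8, 20.05 and 42.6 CPM against 4.99 to 102 CPM, with Lot 8 male far above the rest. Clu, which encodes the secreted chaperone clusterin, counted 43.9, 46.7 and 36.3 CPM against 6.59 to 200 CPM, with both Lot 12 lines above it. All 3 varied widely between lines that showed no shift.

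Pdlim2, an actin-associated adaptor gene, counted 131, 157 and 141 CPM against 50.8 to 195 CPM. Itm2b, a membrane protein gene known from familial dementias, counted 371, 435 and 406 CPM against 270 to 511 CPM. Cdkn3, a phosphatase gene of cycling cells, counted 189, 110 and 128 CPM against 79.4 to 108 CPM in the other lines, where it lay above every other line. Its libraries spread widely within lines, with 1 Lot 12 female library at 23.1 CPM and the Lot 12 male library of the same number at 20.3 CPM. The 7 escape genes outside the run had a median SD of 0.865 (log2 CPM) over the other 9 lines, against 0.246 for the well-measured members that neither escaped nor lay in the run.

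Members below 10 CPM on average were left out of the escape genes, and some stood far above the shift. Otx2, a homeobox gene of the anterior brain, was named after its values were seen: it lay at 23.6 CPM in the Lot 6 female line against 0.0745 to 10.6 CPM in the others, the highest relative level of all 362 members at 5.75. Zic2, a zinc finger gene of the early neural plate, followed at 4.95 and Ang2, a ribonuclease family gene, at 4.57, both also named after their values were seen and both on few counts. Gzme, a granzyme gene next to Mcpt8, lay at 4.32 CPM against 0.0563 to 19.3 CPM.

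At the other end, the 6 lowest well-measured members lay between -2.37 and -1.98, and members under 10 CPM on average reached -4.26 (Pcdh9, a protocadherin gene, named after its values were seen). Of the well-measured members Nt5dc2, a nucleotidase-like gene, was the lowest at -2.37, with 9.43, 7.21 and 6.58 CPM in the Lot 6 female libraries and 16.2 to 53.6 CPM in the other lines. The groups did not overlap. Ebpl, a relative of a sterol isomerase gene, stood at -2.23 with 5.56 CPM against 18.7 to 39.0 CPM, also without overlap.

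Anxa8 (-2.17), an annexin gene, and Gng2 (-2.16) were low in other lines as well, with Lot 7 male at 4.77 CPM and Lot 7 female at 9.09 CPM beside 3.17 and 9.92 CPM in the Lot 6 female line. Ccser2 stood at -2.01 with 9.73 CPM against 21.9 to 89.3 CPM. Fam213a, a redox-active protein gene, stood at -1.98 with 2.48 CPM against 4.70 to 48.7 CPM.

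By role, every list had a median below 0 in the Lot 6 female line, where all well-measured genes had a median of -0.04. The listed genes are members, chosen on this line, so low values were built into the lists. The lists are best read beside all well-measured members, with a median of -0.72 and 89.7% below 0. Of the genes for RNA processing and translation all 16 well-measured members lay below 0, with a median of -1.05. Tpt1, an abundant growth-related protein gene, counted 888, 847 and 845 CPM there against 1747 to 2616 CPM in the other lines. Gnl3, the nucleolar GTPase nucleostemin, stood at -1.41 and Hnrnpc, a pre-mRNA binding protein gene, at -0.94. In protein folding and turnover all 15 lay below 0, with a median of -0.85. Nedd8, a ubiquitin-like modifier, counted 404, 387 and 429 CPM against 623 to 776 CPM, and Dad1, a subunit of oligosaccharyltransferase, 381, 360 and 349 CPM against 547 to 748 CPM. Neither overlapped the other lines.

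In mitochondria and metabolism all 13 lay below 0, with a median of -0.70. Esd, a glutathione-related esterase gene, stood at -1.35, Vdac2, an outer membrane channel gene, at -0.69 and Ghitm, an inner membrane protein gene, at -0.70. Signalling genes had a median of -1.02 over 6 members, with 5 below 0 and Bmp4 as the exception; Ppp2r2a, a regulatory subunit of protein phosphatase 2A, stood at -1.06. In chromatin and transcription 11 of 12 lay below 0 with a median of -0.80. Supt16, a subunit of the histone chaperone FACT, stood at -1.15, while Sap18, of the Sin3 corepressor complex, stood at 0.03.

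Membrane traffic genes had a median of -0.78, with 5 of 6 below 0. Cytoskeleton and adhesion genes had a median of -0.57, with 9 of 10 below 0. Fermt2, the integrin activator kindlin-2, was among the nearest to 0 at -0.04. Cell cycle genes had the median closest to 0, at -0.29, with 11 of 14 below 0. Cdkn3, Dlgap5, a spindle protein gene, and Esco2, a cohesin acetyltransferase gene at 0.19, were the 3 above 0, while Rnaseh2b, a ribonuclease H2 subunit gene, stood at -1.19. The differences between lists were not tested.

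Comparisons that leave out the Lot 6 female line were tested for all genes with edgeR's quasi-likelihood test and Benjamini-Hochberg adjustment over 12101 genes, at an adjusted p of 0.05, and 356 of the 362 members entered. In Lot 7, 38 members (10.7%) differed between the female and the male line, where 10.9% of all genes did, a share close to that background. The directions differed: 29 were higher in the female line (8.15% of members, against 5.45% of all genes) and 9 lower (2.53%, against 5.45%). The median log2 fold change was 0.13 over the members and 0.01 over all genes. In Lot 8, 46 members (12.9%) differed, where 11.5% of all genes did, with 38 higher in the female line (10.7%, against 6.4%) and 8 lower (2.25%, against 5.11%). The median was 0.21 over the members and 0.00 over all genes. With library totals in place of scaling factors 69 members were called in Lot 8, 61 higher and 8 lower, where 1482 of all 12173 genes tested were called. The median of all genes moved by 0.08 under this setting, so the number of higher calls depended on the scaling. Lots 7 and 8 are the 2 lots whose male lines had chromosome 14 as their lowest chromosome.

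Lots 11 and 12 had few calls. In Lot 11, 11 members differed (3.09%, against 4.36% of all genes), 6 higher in the female line (1.69%, against 1.61%) and 5 lower (1.40%, against 2.75%). In Lot 12, 7 differed (1.97%, against 3.85%), 5 higher (1.40%, against 1.72%) and 2 lower (0.562%, against 2.13%). Leaving out Lot 12 male replicate 1 left 3 of these calls, and leaving out Lot 12 female replicate 1 or replicate 2 left 4. With the replicate numbers of every lot as a block the Lot 12 count was 9, where 671 of 12101 genes were called. The Lot 12 p-values given here come from the fit without the block.

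**Figure D5:**
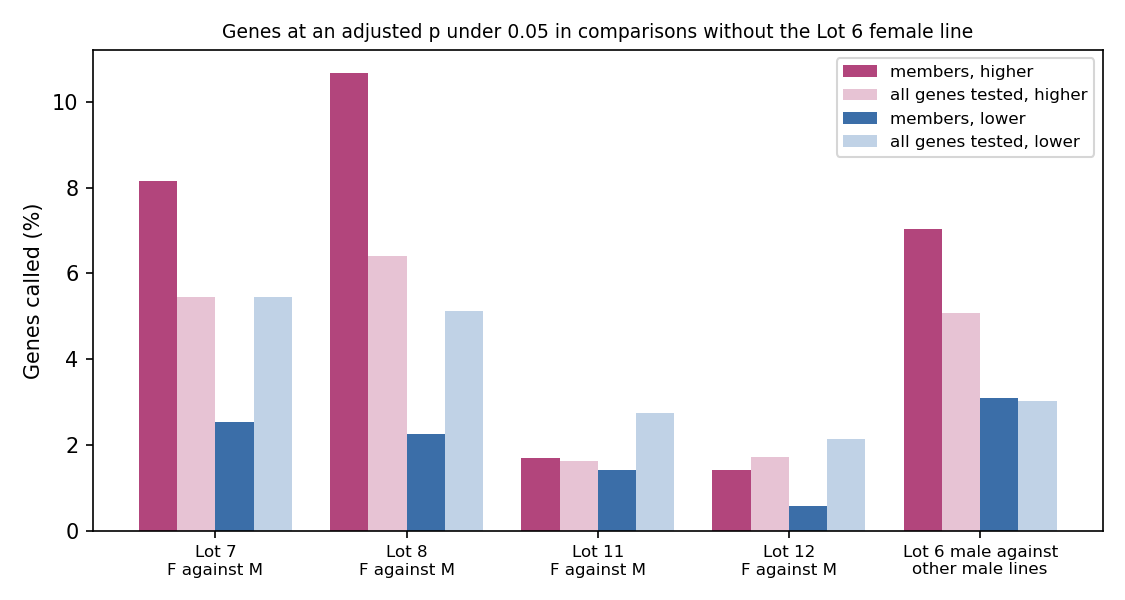
Percentage of the 356 tested chromosome 14 members and of all 12101 tested genes called higher or lower (edgeR, adjusted p of 0.05) in 4 comparisons of the female (F) with the male (M) line of a lot and in Lot 6 male against the other 4 male lines. In Lot 8, 10.7% of members were higher in females against 6.4% of all genes, and in Lots 11 and 12 no bar for members passes 2%.

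The Lot 6 male line was set against the mean of the other 4 male lines, since it came from the same litter as the shifted female line. This comparison shares its male libraries with the others. It called 36 members (10.1%, against 8.1% of all genes), 25 higher in Lot 6 male (7.02%, against 5.07%) and 11 lower (3.09%, against 3.03%), with a median log2 fold change of 0.08 over the members and -0.01 over all genes. With library totals in place of scaling factors it called 22 members, 10 higher and 12 lower, and the median of all genes moved by -0.11, so the excess of higher calls depended on the scaling. Leaving out Lot 6 male replicate 1 gave 20 calls, 15 higher and 5 lower, and leaving out replicate 2 gave 15, of which 7 were higher and 8 lower, so the excess was lost without that library too. Calls over all genes fell from 980 to 514 and 565 in these 2 settings.

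Members of the role lists were called in several comparisons, and the genes named in this paragraph beyond the leading ones were chosen after their values were seen. In Lot 8, 5 of 20 members for protein folding and turnover were higher in the female line, among them Psme1, a proteasome activator subunit (log2 fold change 0.81, adjusted p = 2.22e-04), and Nedd8 (0.27, adjusted p = 0.0239), and none was lower, where 6.4% of all genes were higher and 5.11% lower. Of 19 members for mitochondria and metabolism, 4 were higher, with Pdhb, a pyruvate dehydrogenase subunit, at 0.95 (adjusted p = 3.17e-06), and none was lower. Of 17 cytoskeleton and adhesion members, 5 were higher, including Ktn1, a kinesin anchor on the endoplasmic reticulum, and 1 was lower. In Lot 6 male, where 5.07% of all genes were higher than in the other male lines and 3.03% lower, 4 of 20 members for protein folding and turnover were higher, Psmd6, a proteasome lid subunit, by 0.33 (adjusted p = 0.00246) among them, and 1 was lower. Of 19 members for RNA processing 3 were higher, Tpt1 by 0.28 (adjusted p = 0.0125) and Gnl3 by 0.40 (adjusted p = 0.0114) among them, and none was lower. No other list had more than 4 calls in 1 direction.

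Of the 15 genes of the run none was called in Lots 7, 11 and 12, where 10.9%, 4.36% and 3.85% of all genes were, 1 in Lot 8 (11.5% of all genes) and 2 in Lot 6 male (8.1% of all genes). At 15 genes these counts lie near the background and are given as a description. The Lot 8 call was Kcnk5, with 31 counts in the 4 female libraries and 0 in the 4 male ones, at least 11.4-fold higher against a floor of 3 counts over the male group (edgeR adjusted p = 9.32e-04). In Lot 6 male Kcnk5 was higher by 2.77 (SE 0.62, adjusted p = 0.00291) and Mrps16 by 0.45 (SE 0.090, adjusted p = 8.39e-04). The male mean used there includes Lot 8 male with its 0 counts of Kcnk5, so the size of the Kcnk5 difference depends on that zero. Against the median of the other lines no member of the run stood above 1.07 in Lot 6 male.

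Of the 12 escape genes 5 were called in Lot 7 (10.9% of all genes), 3 in Lot 8 (11.5%), 1 in Lot 11 (4.36%), none in Lot 12 (3.85%) and 4 in Lot 6 male (8.1%), in comparisons that did not use the line in which they escaped. Whether these counts differ from those of other members was not tested. Escape genes have a mean of at least 10 CPM by definition, and genes at that level were called more often than all genes. Of the 6353 such genes, tested on their own, 1138 were called in Lot 7, 1151 in Lot 8 and 390 in Lot 11. In Lot 12 the count was 461 and in Lot 6 male 867. Mustn1 counted 3.30, 8.32, 3.93 and 5.05 CPM in the Lot 7 female libraries and 1.24, 0.289, 0.955 and 0.974 CPM in the male ones. The groups did not overlap, and the difference was 2.56 (SE 0.52, edgeR adjusted p = 7.08e-04). Bmp4 was higher in Lot 7 female by 1.12 (SE 0.30, adjusted p = 0.0111) and in Lot 6 male by 1.00 (SE 0.24, adjusted p = 0.00520), the latter lost without Lot 6 male replicate 2. Mcpt8 was higher in Lot 7 female by 1.98 (SE 0.52, adjusted p = 0.00954) but lower in Lot 8 female by 2.48, with 17.0, 24.97, 22.2 and 9.79 CPM there against 128, 128, 102 and 55.7 CPM in the Lot 8 male libraries (adjusted p = 4.00e-04).

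Clu was lower in Lot 6 male than in the other male lines, with 8.30, 7.45 and 4.48 CPM, a log2 fold change of -2.45 (SE 0.32, adjusted p = 1.18e-06). Pdlim2 was lower in the female line in Lot 7 (-0.69) and Lot 8 (-0.87), higher in Lot 11 (0.92) and higher in Lot 6 male than in the other males (0.59), with adjusted p-values of 0.0373, 0.00685, 0.00992 and 0.0446. The Lot 11 call was lost without male replicate 1 (0.76, adjusted p = 0.0680). Itm2b was higher in the female line in Lot 7 (0.44, adjusted p = 0.0111) and Lot 8 (0.39, adjusted p = 0.0265). Cdkn3, Camk2g, Sec24c, Dnajc9 and Ppp3cb were called in none of the 5 comparisons.

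Several of the lowest members also differed where the shifted line played no part. Nt5dc2 was lower in the female line in Lot 7 (-1.31, SE 0.18, edgeR adjusted p = 2.61e-06) and Lot 12 (-1.26, SE 0.21, adjusted p = 1.22e-04), and lower in Lot 6 male than in the other male lines (-0.98, SE 0.17, adjusted p = 1.41e-04). In Lot 12 it counted 19.4, 23.8 and 21.0 CPM in the female libraries and 54.7, 54.3 and 44.7 CPM in the male ones, without overlap. Fam213a was lower in Lot 7 female (-1.98, adjusted p = 8.21e-04) and higher in Lot 8 female (2.22, adjusted p = 2.35e-04). Ccser2 was higher in the female line in Lot 7 (1.60, adjusted p = 8.60e-07) and Lot 8 (1.92, adjusted p = 2.91e-08), and lower in Lot 11 (-1.03, adjusted p = 0.00160).

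Gng2 was lower in Lot 7 female (-1.36, adjusted p = 0.0130), where its 4 libraries ran from 1.59 to 21.2 CPM, and higher in Lot 11 female (1.39, adjusted p = 0.00897). The Lot 7 call was lost without female replicate 2 or 4 or without male replicate 1. Anxa8 was higher in Lot 8 female (2.44, adjusted p = 3.15e-04) and in Lot 6 male (2.42, adjusted p = 4.80e-06), where it counted 71.8, 56.9 and 48.4 CPM. Ebpl was higher in Lot 12 female (1.01, adjusted p = 0.0450), a call that leaving out any Lot 12 female library, or male replicate 1 or 2, ended.

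Other leading calls were on members that were neither escape genes nor among the 6 lowest. Haus4, a subunit of the augmin complex of the spindle, was lower in Lot 11 female (-1.20, SE 0.20, edgeR adjusted p = 5.23e-05) and higher in Lot 8 female (1.17, SE 0.20, adjusted p = 8.52e-05). Its Lot 8 male libraries lay at 13.0 to 16.9 CPM and the female ones at 27.98 to 43.0 CPM. Pbk, a mitotic kinase gene, was higher in Lot 11 female by 0.81 (adjusted p = 0.00149). Lats2, a kinase of the Hippo pathway, was higher in Lot 7 female by 1.38 (adjusted p = 1.19e-06) and lower in Lot 6 male (-0.69, adjusted p = 0.00925), the latter lost without Lot 6 male replicate 1 or 2. Tsc22d1, a transcription factor gene induced by TGF-beta, was higher in Lot 12 female by 1.02 (adjusted p = 1.31e-06), and Sorbs3, which encodes the vinculin-binding protein vinexin, was lower there (-1.26, adjusted p = 1.11e-04). Actr8, a subunit of the INO80 chromatin remodeller, was higher there by 0.79 (adjusted p = 0.0263), a call lost when most single Lot 12 libraries were left out. Ppif, the mitochondrial cyclophilin gene, was higher in Lot 6 male by 0.82 (adjusted p = 0.0237), lost without its replicate 1 or 2 and with library totals alone.

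Whether the sex difference was unequal among Lots 7, 8, 11 and 12 was tested as such. It was unequal for 55 of the 356 members (15.4%), where it was unequal for 17.8% of all genes, for 5 of the 12 escape genes and for 1 of the 15 genes of the run. Among the 6353 genes with a mean of at least 10 CPM, tested on their own, it was unequal for 1672.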

How the data were processed

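The deposited table holds raw read counts per gene, 36 columns for 36 libraries, aligned to GRCm38. Per the submitters' processing notes the tools were cutadapt 2.10, STAR 2.7.6a and Subread 2.0.2. Strand setting, annotation and any collapsing of molecular identifiers are not given in the sources used here; without collapsing, amplified copies count as separate reads. Gene places and types came from GENCODE vM21 (45229 identifiers matched, and 849 without a match held 0.0295% of the counts). Libraries were scaled by TMM in edgeR 4.0.16 (R 4.3.3), the libraries of a line were summed, and log2 CPM used a prior count of 2. Tests were edgeR's quasi-likelihood tests over all genes, with 1 coefficient per line. The routines were tested on simulated data. Replicate libraries differed by more than sampling noise in all 48 pairs, and none were identical. Replicate numbers were taken to pair libraries where the deviations from the line means correlated above 0.1 in every same-numbered pair of a lot: this held in Lot 12 (r = 0.392, 0.529 and 0.515) and not in the other lots.

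Members, role lists and tests were chosen with earlier results of these data known. Genes named were the escape genes, the 6 lowest members of the Lot 6 female line, the 3 highest and 3 lowest fold changes among called well-measured members of each comparison, the 3 best expressed of each role list, and the members nearest to each limit. Alternatives changed the scaling, the filter, the level minimum, the reference lines, the tool (DESeq2 1.42.0), the replicate block and single libraries.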

Additional observations from a re-analysis of the deposited data

Results flagged for a closer look

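In a group of 4 to 10 samples a value was picked out when it stood apart from the rest by Dixon's test, which chance alone does for about 1 in 20 groups; 7 of 100 groups of lines or libraries were picked out here. The Lot 6 female line was left out of these groups because the members were chosen on it. Among the other 4 female lines the median relative level of the chromosome 14 members stood low in Lot 7 at -0.099 (0.14 to 0.15 in the others). Tsc22d1 stood low in Lot 8 at 248 CPM (429 to 451), as did Esco2, a cohesin acetyltransferase gene, at 34.4 CPM (46.2 to 47.8), and Dad1, an oligosaccharyltransferase subunit gene, stood high in Lot 12 at 748 CPM (649 to 662). Among the male lines Sorbs3 stood low in Lot 7 at 21.5 CPM (43.0 to 52.3), Tm9sf2, which encodes an endosomal membrane protein, stood low in Lot 8 at 60.9 CPM (72.2 to 76.0), and Spry2 stood high in Lot 11 at 33.7 CPM (11.0 to 14.9).

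For 18 of 45 named genes the sex difference was unequal among Lots 7, 8, 11 and 12 (edgeR quasi-likelihood F-test of the differences, adjusted over all genes). Among all genes tested the share was 17.8%. Many of the named genes were chosen for a called sex difference in single lots, the same values that this test compares. A high share was therefore built in and is no result about the members. The adjusted p was smallest for Ccser2 at 3.84e-10, higher in females in Lots 7 and 8 and lower in Lot 11, for Haus4 at 6.56e-07 and for Tsc22d1 at 9.46e-07. It was 4.67e-06 for Fam213a, 3.32e-05 for Sorbs3 and 4.21e-05 for Sap18, the latter higher in Lot 7 female by 0.74 (adjusted p = 7.26e-07). Of the escape genes it was 1.06e-04 for Mustn1, 1.06e-04 for Mcpt8, 1.69e-04 for Pdlim2, 0.00342 for Bmp4 and 0.0251 for Clu. It was 1.67e-04 for Lats2, 5.11e-04 for Gng2, 0.00132 for Nt5dc2, 0.00335 for Pbk, 0.00612 for Ktn1, 0.0342 for Anxa8 and 0.0343 for Ghitm.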

How the results depend on the processing

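The median of -0.72 in the Lot 6 female line kept its sign under every alternative. It was -0.62 with library totals alone, -0.74 with TMM computed without chromosome 14, -0.68 with a minimum of 1 CPM, -0.69 over all members, -0.79 against the other 4 female lines, and -0.74 without the run from Kcnk5 to Camk2g, an alternative added after seeing the data; leaving out single Lot 6 female libraries gave -0.73 to -0.70. The 12 escape genes became 32 with a minimum of 1 CPM, 7 with 30 CPM and 13 to 15 with single libraries left out. Calls for Lot 6 male fell from 36 to 22 with library totals alone, where those over all genes were 980 and 1004. Calls for Lot 11 were 17 and for Lot 12 were 11 with no filter on low counts, where 694 and 557 of all genes were called. Those for Lot 11 were 7 among genes of at least 10 CPM, where 390 of all such genes were called. With single libraries left out, Lot 7 had 28 to 40 calls, Lot 8 had 36 to 44, Lot 11 had 8 to 13, Lot 12 had 3 to 10, Lot 6 male had 15 to 39, and the unequal sex difference had 44 to 58. Calls over all genes moved as well, at 973 to 1152 in Lot 7, 1045 to 1318 in Lot 8 and 379 to 496 in Lot 11. They were 227 to 731 in Lot 12, 514 to 1067 in Lot 6 male and 1957 to 2387 for the unequal difference. With the replicate number as a block, Lot 7 had 52 calls, Lot 8 had 56, Lot 11 had 16, Lot 12 had 9, Lot 6 male had 45, and the unequal difference had 66. Calls over all genes rose under the block too, to 1688 in Lot 7, 1712 in Lot 8 and 671 in Lot 11. They rose to 671 in Lot 12, to 1341 in Lot 6 male and to 2602 for the unequal difference. All 7 Lot 12 calls on members were kept under the block. In Lots 7, 8 and 11 same-numbered pairs correlated at -0.034 to 0.304, with the replicate 4 pairs at 0.265, 0.304 and 0.254, and in Lot 11 every library correlated best with its own number, a hint from the data and not from the design. Of 428 values for single genes under the alternatives, 408 kept their direction and their side of the threshold, 20 kept their direction but lost the call (7 genes), and 0 reversed.

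Limits: each sex of a lot is 1 line, so no comparison here is one of sexes in general. The run from Kcnk5 to Camk2g was found in the values that describe it, and 6 of its 15 members lay under 10 CPM. Copy number was not measured.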
